A study of Zea mays with 24 samples.

Results

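The probe sets described here moved in opposite directions in the root and the shoot of maize seedlings under Zn deficiency. A probe set is a group of short oligonucleotides on the array that reads 1 transcript or several similar ones. A probe set was taken when its group mean under –Zn differed from the +Fe+Zn mean of the same tissue by at least 1 on the log2 scale, a 2-fold change, in both tissues and with opposite signs. Of 17621 probe sets, the manufacturer's controls left out, 230 met this. They form a set of 172 that were higher in the root and lower in the shoot (the root-higher set) and a set of 58 that were lower in the root and higher in the shoot (the root-lower set). For comparison, 224 probe sets moved by at least 1 in both tissues in the same direction.

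The plants were seedlings of SKV-616, a quality protein maize inbred line, sampled after 12 days of hydroponic culture. The control solution held Fe and Zn (+Fe+Zn), and the stresses left out ZnSO4 (–Zn), Fe EDTA (–Fe) or both (–Fe–Zn), each for 12 days. Root and shoot RNA of each treatment was isolated in triplicate and hybridised to 3 arrays, which the labels call replications, 24 arrays in all. Deposited values are on the log2 scale with a lowest value of 2.24 on every array, so a change that starts from or ends at that value is understated. In whole roots and shoots, fewer cells of a type and less RNA per cell cannot be told apart.

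Zn is a structural or catalytic part of many proteins, among them carbonic anhydrase and a large share of transcription factors, and plants take it up at the root and move it to the shoot through the xylem. Fe serves the electron transport chains of chloroplasts and mitochondria, and grasses take it up with mugineic acids, chelators made from methionine through nicotianamine. Roots import sugar and respire it, while maize leaves fix carbon by the C4 route.

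The tissue labels were checked against markers. Of 15 probe sets for leaf genes (photosystem subunits, antenna proteins, Rubisco, its activase and phosphoenolpyruvate carboxylase), 14 were higher in every shoot group than in any root group. Of 12 for root genes (peroxidase, nicotianamine synthase, yellow stripe and aquaporin genes), 6 were higher in every root group than in any shoot group. Within +Fe+Zn, 10 of the 12 were higher in the root than in the shoot, and within –Zn 8 were. In shoots the leaf markers had a median of 12.08 in the control and of 10.53, 12.12 and 9.13 when Zn, Fe and both were left out, and their part in the results was not tested. Replicates of root –Fe–Zn correlated across probe sets at 0.952 to 0.987, and those of the other groups at 0.974 or more. Replicate 1 of root –Fe–Zn stood apart from the other 2, with a median over the root-higher set of 5.90 against 7.14 and 7.24, and named members whose call changed without it are given both ways.

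**Figure D1:**
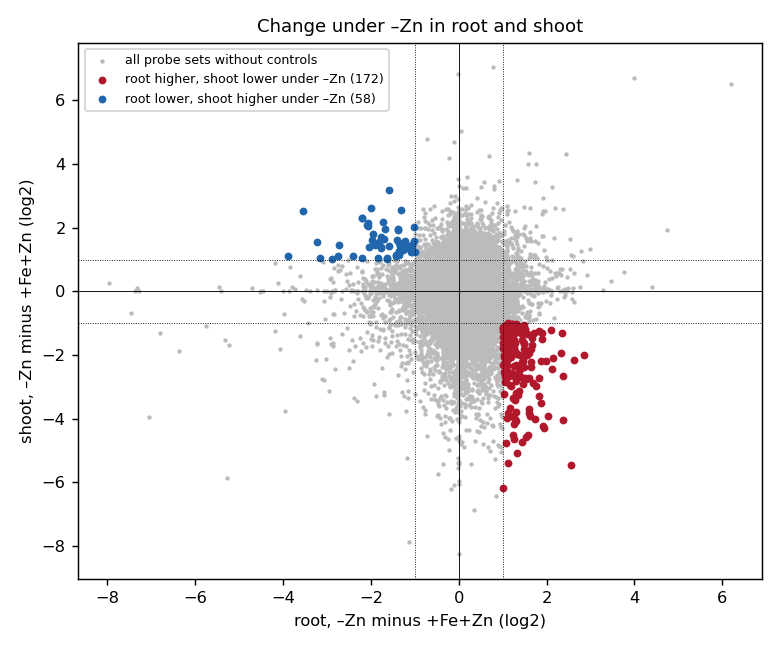
Change under –Zn against +Fe+Zn (log2) in the root (horizontal axis) and the shoot (vertical axis), 1 point per probe set, group means of 3 arrays. Dotted lines mark changes of 1. The 172 root-higher members lie in the lower right corner, and the 58 root-lower members in the upper left.

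The members were chosen by their –Zn values, which are therefore a description with no test. The root-higher set had a median change of 1.28 in the root, from 1.00 to 2.85, and of -2.03 in the shoot, from -6.18 to -1.01. The shoot side was thus the larger. The root-lower set had a median of -1.62 in the root, down to -3.89, and of 1.43 in the shoot, up to 3.19. Over all probe sets both medians were near 0 (0.00 in the root and 0.01 in the shoot). The 3 –Zn arrays did not overlap the 3 +Fe+Zn arrays in either tissue for 168 of the 172 (9.35% of all probe sets did the same in that direction) and for all 58 (5.78%), and since the rule used these arrays nothing is read from that. Just inside the limit, the smaller of the 2 changes was 1.00 for 3 root-higher members and 1.01 to 1.02 for 3 root-lower ones. Just outside it, the nearest 3 had 0.995 to 1.00 in the first direction (0.9997 at the closest) and 0.986 to 0.996 in the second.

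Tissue levels were compared with the +Fe+Zn and –Zn means that chose the members, so the values below are a description that the rule shaped. Under +Fe+Zn, 104 of the 172 root-higher members were higher in the shoot than in the root, with a median gap of 0.49. Under –Zn that held for 16, and the median gap was -3.17, so 88 members changed the tissue in which they were higher. Of all 17621 probe sets, 7046 were higher in the shoot under +Fe+Zn and 8107 under –Zn, and 1469 changed from shoot to root. Of the 58 root-lower members, 5 were higher in the shoot under +Fe+Zn (median gap -2.78) and 35 under –Zn (median gap 0.32). In 43, against 7340 of all 17621 probe sets, the distance between the tissues was smaller under –Zn than in the control. Of the 8 groups, root –Zn held the highest mean for 100 root-higher members (2099 of all 17621). Shoot –Zn held the lowest for 70 (1071 of all) and shoot –Fe–Zn for 62 (1129 of all). The highest mean of 28 root-lower members was in root +Fe+Zn (1850 of all).

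Whether removing Zn has the same effect in plants that also lack Fe was asked of arrays that played no part in the choice of members, –Fe–Zn against –Fe. The spread in the limma test was estimated from all 24 arrays, those that chose the members included. In the shoot, 157 of the 172 root-higher members fell and 1 rose at a limma adjusted p under 0.05, where 22.1% of all 17734 probe sets fell and 23.3% rose (45.4% in either direction). The median change was -2.48 (standard errors of single members had a median of 0.34), against 0.00 over all probe sets. The –Fe–Zn arrays lay wholly below the –Fe arrays for 158 of them (24.3% of all probe sets). In the root, 16 rose (10.9% of all) while 29 fell (26.5% of all), with a median of -0.30. The root –Fe–Zn arrays lay wholly above the –Fe arrays for 15 (10.4% of all) and wholly below for 53 (26.9% of all). Without replicate 1 of root –Fe–Zn, 47 rose (15.5% of all) and 25 fell (28.6% of all), with a median of 0.09, and the arrays lay wholly above for 72 (17.9% of all) and wholly below for 54 (35% of all).

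Of the 58 root-lower members, 33 rose in the shoot on Zn withdrawal and 9 fell, with a median of 0.97. In the root, 20 fell and 13 rose, with a median of -0.08. The shares that rose and fell there, 22.4% and 34.5%, were above those of all probe sets in both directions. The root part of neither set was therefore seen again in Fe-deficient plants as a majority. Shares of all probe sets, here and throughout, include many dim ones. Depending on the group, 38.1% to 41.6% of those without controls had a mean under 3. For the root-higher set this was at most 17.4%, and for the root-lower set at most 24.1%. Members and all probe sets are thus unlike in level, and the part of this in the shares was not tested.

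The difference between the tissues was tested in the same model, as the shoot change minus the root change. It was negative for 128 root-higher members and positive for 3, where 18.2% of all probe sets were negative and 28% positive (46.2% in either direction). It was negative for 75 root-higher members without replicate 2 of every group and for 64 without replicate 3, and the shares of all probe sets there are not given. For the root-lower set it was positive for 32 and negative for 5. Both opposite moves were called together, root up and shoot down, for 13 of the 172 (2.77% of all), and root down and shoot up for 8 of the 58 (8.6% of all). Besides these, 26 root-higher members fell in both tissues (6.17% of all) and 9 root-lower members rose in both (3% of all). Without replicate 1 of root –Fe–Zn, the counts were 44 root up and shoot down (4.21% of all), 12 root down and shoot up (11% of all), 24 lower in both (6.78% of all) and 13 higher in both (3.46% of all), and the tissue difference was negative for 134 root-higher members (20.2% of all) and positive for 35 root-lower ones (30.2% of all). In counts of group means, 93 root-higher members were higher in the shoot than in the root under –Fe and 31 under –Fe–Zn, whereas 20 and 34 root-lower members were. Of all 17621 probe sets, 6521 and 8523 were, so the count over all of them rose as well. The distance between the tissues was smaller under –Fe–Zn than in the control for 27 of the 58 root-lower members, and for 8289 of all 17621 probe sets.

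Among the named members, leaving out replicate 1 of root –Fe–Zn added calls in the root on Zn withdrawal. Without it, rises in the root passed the limma test for eno1 (1.80, against 0.82 with it), tif5A (2.14 against 1.03), LOC541984 (1.87 against 1.09), anx2 (1.47 against 0.85), LOC541999 (1.15 against 0.38) and RGP (1.01 against -0.24), and for the unnamed Zm.7081.2.S1_a_at (1.59 against 0.09) and Zm.2321.4.A1_a_at (1.19 against 0.64). Of the root-lower set, tub3 (0.52 against 0.28) and tub6 with suffix x (0.66 against 0.29) then rose in the root, and lim1 fell there (-0.83 against -0.59). With all 3 arrays none of these root changes passed.

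**Figure D2:**
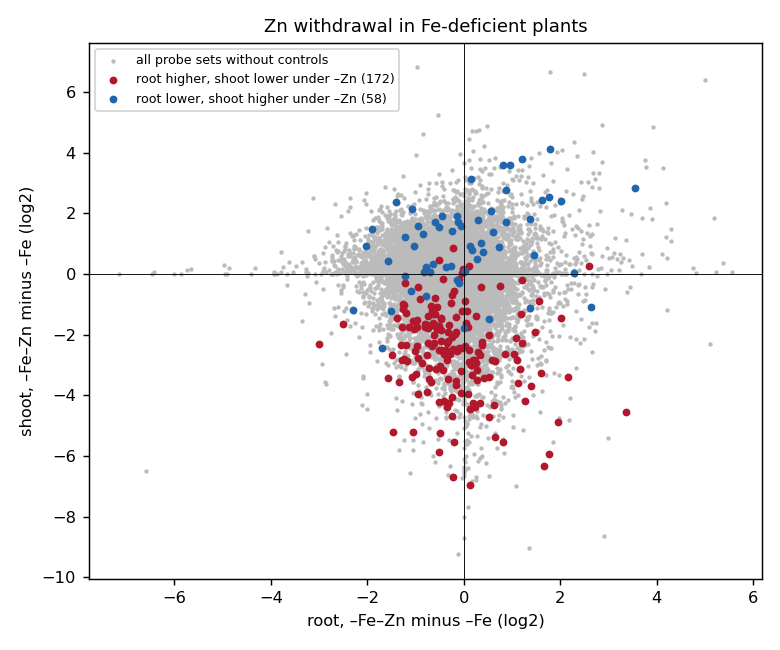
Change from –Fe to –Fe–Zn (log2) in the root (horizontal axis) and the shoot (vertical axis), 1 point per probe set. Root-higher members lie mostly below 0 in the shoot and on both sides of 0 in the root, with medians of -2.48 and -0.30.

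Several technical signals moved with these groups. The arrays carry probe sets near the 3′ end and in the middle of the same control transcripts, and labelling starts from the 3′ end. For cyclophilin, which most cells express, the middle probe set averaged 9.27 in control roots and 9.83, 9.03 and 9.42 in roots lacking Zn, Fe and both (6.44 in replicate 1 of the last). In control shoots it averaged 4.84, and in the same stresses 2.76, 9.18 and 2.77, respectively. The 3′ probe set averaged 13.57 to 14.20 in all 8 groups. Ubiquitin's middle probe set went from 6.45 to 7.24 in the root and from 5.27 to 4.42 in the shoot under –Zn, and from 7.08 under –Fe to 3.94 under –Fe–Zn in the shoot. These are the directions of the root-higher set. Averaged over cyclophilin, ubiquitin and Gapdh, the middle minus 3′ signal was -9.26 in control shoots and -9.27 in –Zn shoots, but -6.27 in –Fe shoots and -9.81 in shoots lacking both. Roots had -7.09 in the control and -6.21, -6.50 and -5.68 in the respective stresses. By array, root –Fe–Zn held -7.99, -4.44 and -4.60 (replicates 1 to 3), and the other root arrays lay between -7.18 and -5.91. BioB, a bacterial control, read 9.81, 13.72 and 13.84 on these 3 arrays and 3.63 to 6.30 on the other root arrays. The 18S rRNA control averaged 8.95 in root –Fe–Zn and 5.18 in control roots. Results without replicate 1 thus rest on the 2 arrays with the highest of these signals. The 3′ probe set of Gapdh averaged 13.57 in control shoots and 11.89, 14.07 and 12.55 in shoots lacking Zn, Fe and both. The control dap, a bacterial transcript, averaged 10.26 in control shoots and 6.0, 10.60 and 6.15 in the same stresses, and 12.57 in control roots and 9.19, 12.05 and 13.21 in stressed ones, so it was low in both tissues under –Zn and low in the shoot under –Fe–Zn. The part of these signals in the results was not tested, beyond the covariate that follows.

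With that signal as a covariate, added after seeing the data, 85 root-higher members fell in the shoot on Zn withdrawal in place of 157, and the median was -1.20. The tissue difference was negative for 44 in place of 128 and positive for 12, with a median of -0.63. Among the members named in the text, the sign of the tissue difference turned for tif5A, nrx1, yptm2, hmg2, LOC541999, bk2 and the unnamed Zm.7081.2.S1_a_at. Of the root-lower set, 28 rose in the shoot and the tissue difference was positive for 26, against 33 and 32. The shares of all probe sets called with the covariate are not given, so these counts cannot be set against them. The slope of the covariate is set by differences among replicates, which were widest in root –Fe–Zn (SD 2.01). The median –Zn change of the root-higher set was 1.01 in the root and -2.03 in the shoot with the covariate, and that of the root-lower set -1.62 and 1.44. The covariate averaged -9.26 in control and -9.27 in –Zn shoots, so it could hardly change the shoot values, and nothing is read from them. In those shoots Gapdh's middle probe set was near the floor (2.43 and 2.52) while its 3′ probe set fell, against the fall of cyclophilin's middle probe set.

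**Figure D3:**
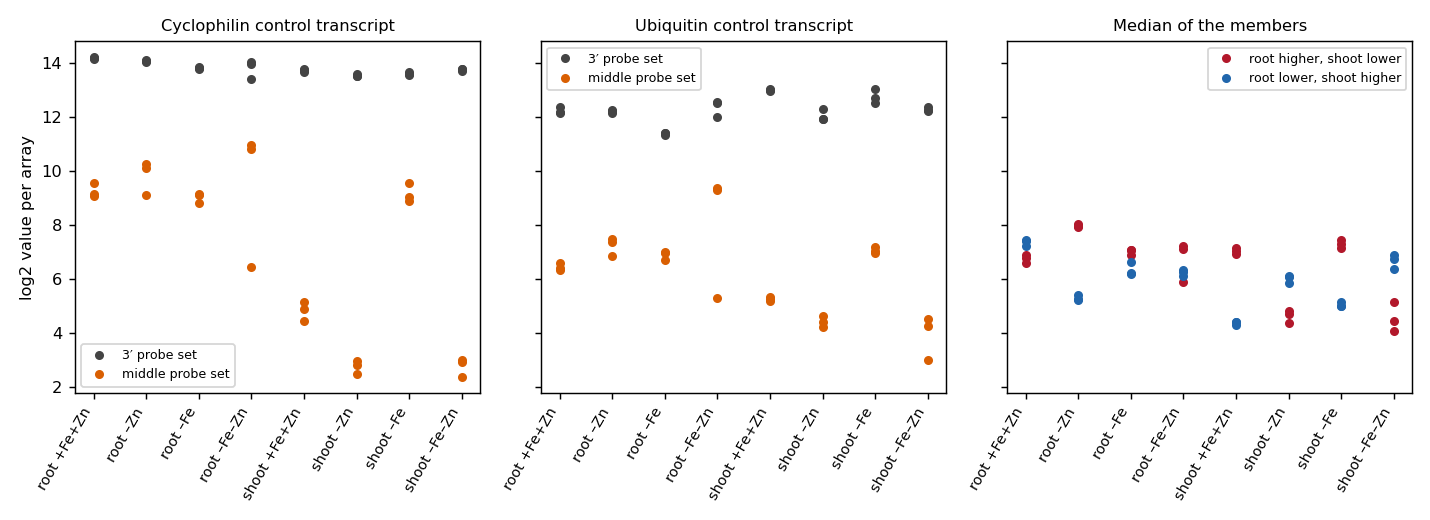
Values on each array (log2, 1 point per array, 3 per group) of cyclophilin and ubiquitin probe sets (3′ end and middle), and the median of each set of members on the same arrays. The middle probe set of cyclophilin and the median of the root-higher set are both low in shoot –Zn (2.76 on average for cyclophilin) and shoot –Fe–Zn. In shoot –Fe that cyclophilin probe set averaged 9.18, against 4.84 in control shoots. The root-higher medians were 7.16 to 7.45 in shoot –Fe and 6.93 to 7.15 in control shoots.

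The type of probe set also differed between the sets. On this array a suffix a marks probe sets that read several transcripts of 1 gene, and x marks probe sets with oligonucleotides that also match other genes. The suffix a was on 69 of the 172 root-higher members (40.1%), 3 of the 58 root-lower members (5.17%) and 7.14% of all probe sets without controls. It was on 16.0% of the probe sets at least 1 lower in shoot –Zn and on 21.0% of those at least 1 higher in root –Zn. The suffix x was on 18 root-higher and 4 root-lower members. Of the 79 root-higher members with the plain suffix, 65 fell in the shoot on Zn withdrawal (median -1.69), and of the 69 with suffix a, 68 did (median -2.84). Their part in the result was not tested.

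Probe sets that share the cluster and subcluster number of a member, and so were designed on the same or a closely related sequence, often did not move with it. Among 66 root-higher members with such a partner, the median –Zn change was 1.30 in the root and -2.33 in the shoot, and among their 73 partners it was 0.25 and 0.00. The partners fall outside the rule by construction, and some, such as those of eno1 and anx2, were at the floor in the controls. Zn withdrawal from Fe-deficient plants was read on other arrays. Members and partners were still told apart by their –Zn values, so these counts are a description. On that withdrawal 65 of the 66 members fell in the shoot (median -2.84), whereas 24 of the 73 partners fell and 20 rose (median -0.01). In control shoots the partners had a median level of 7.57 and the members 6.39. In the root-lower set all 10 members with a partner rose in the shoot (median 2.41), as did 8 of the 12 partners (median 0.77).

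The annotation of the array and the study's gene table name 31 root-higher and 10 root-lower probe sets, and 141 and 48 carry no name. The study drew up its table with these samples in view: it holds 7 root-higher members among its 37 probe sets on photosynthesis and carbohydrates, 7 among its 37 on transporters and mugineic acids and 1 among its 18 on hormones, and no root-lower member.

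Enolase, which makes phosphoenolpyruvate in glycolysis, is read by 3 probe sets of eno1, of which 1 is a member. In the root it read 7.47, 7.69 and 7.33 on the control arrays, 9.78, 9.91 and 9.92 without Zn, 7.85, 8.18 and 7.70 without Fe and 6.76, 9.92 and 9.49 without either. Shoot values were 6.37, 5.68 and 5.85 in the control, 3.08, 3.52 and 3.36 in –Zn, 8.60, 8.26 and 8.08 in –Fe and 3.01, 2.24 and 3.08 where both were left out. Both –Zn groups stood clear of their controls, the shoot –Fe arrays were above all other shoot arrays, and root –Fe–Zn replicate 1 was about 3 units below the other 2. The tissue difference on Zn withdrawal was -6.35 (standard error 0.75, limma adjusted p = 2e-06). Another, at 13.57 in control roots, changed by 0.39 in the root and 0.17 in the shoot under –Zn, and the last was at the floor in the controls.

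The cytosolic glyceraldehyde-3-phosphate dehydrogenases, which carry out an oxidation step of glycolysis, appear in both sets. For gpc2, a root-higher member, the tissue difference was -4.29 (standard error 0.47, limma adjusted p = 8.7e-07). Root values were 9.10, 9.35 and 9.05 in the control, 10.17, 10.30 and 10.13 in –Zn, 8.66, 8.73 and 8.32 in –Fe and 8.66, 10.45 and 10.10 where both were left out. The shoot arrays held 9.48, 9.32 and 9.45 (control), 7.68, 7.68 and 6.86 (–Zn), 10.60, 10.31 and 10.42 (–Fe) and 7.57, 7.50 and 6.86 (both left out). Shoots without Zn were below every other shoot group whether or not Fe was present. A further member, annotated as glyceraldehyde-3-phosphate dehydrogenase, was higher by 1.52 in the root and changed by -2.71 in the shoot under –Zn, with a tissue difference of -0.95 (standard error 0.63, limma adjusted p = 0.25), or of -1.71 without replicate 1 of root –Fe–Zn (limma adjusted p = 0.00098). The root-lower gpc3 is described with its set.

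Malate dehydrogenase 5 (mdh5) interconverts malate and oxaloacetate. The root arrays held 10.88, 11.06 and 10.95 (control), 12.18, 12.33 and 12.14 (–Zn), 10.84, 10.78 and 10.54 (–Fe) and 9.60, 11.60 and 11.66 (both left out). On shoot arrays it was 11.62, 11.43 and 11.17 in the control, 7.21, 8.16 and 8.69 when Zn was left out, 11.32, 11.10 and 11.09 when Fe was and 7.76, 6.26 and 6.30 when both were. In both Zn-free shoot groups all arrays were at least 2 units below the others. Between the tissues it differed by -4.63 (standard error 0.66, limma adjusted p = 1.8e-05). Citrate synthase 2 is the entry enzyme of the citric acid cycle. On root arrays the signal was 4.56, 5.65 and 4.78 in the control, 6.46, 6.68 and 6.63 when Zn was left out, 5.72, 6.24 and 5.98 when Fe was and 4.26, 5.61 and 5.24 when both were. Control shoots gave 6.05, 6.05 and 5.71, –Zn shoots 3.39, 3.22 and 3.06, –Fe shoots 6.38, 6.26 and 6.35 and shoots lacking both metals 4.41, 2.57 and 3.68. The root values of –Fe–Zn overlapped the control, and the tissue difference was -1.83 (standard error 0.54, limma adjusted p = 0.0096).

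The ubiquinol-cytochrome c reductase complex passes electrons from ubiquinol to cytochrome c in mitochondria. Control roots gave 9.43, 9.48 and 9.41, –Zn roots 10.96, 10.94 and 11.16, –Fe roots 9.68, 9.87 and 9.66 and roots lacking both metals 7.74, 10.73 and 11.15. For the shoot, they were 10.23, 9.90 and 9.92 with both metals, 4.99, 5.79 and 5.71 with Fe alone, 9.79, 9.46 and 9.41 with Zn alone and 6.88, 3.25 and 5.14 with neither. Replicates of both –Fe–Zn groups were widely spread. The tissue difference was -4.6 (standard error 1.06, limma adjusted p = 0.0016), with the largest standard error among the named members. Transaldolase 2 belongs to the pentose phosphate pathway. For the root, the log2 values were 7.69, 7.66 and 7.83 with both metals, 8.69, 8.84 and 8.97 with Fe alone, 7.57, 7.61 and 7.36 with Zn alone and 7.0, 8.03 and 7.82 with neither. Those of the shoot were 9.15, 9.02 and 8.70 in the control, 6.27, 7.19 and 7.25 without Zn, 8.61, 8.27 and 8.27 without Fe and 6.73, 5.41 and 5.51 without either. Root arrays outside –Zn were all below the –Zn arrays, and the tissue difference was -2.61 (standard error 0.45, limma adjusted p = 0.00011). The mitochondrial phosphate transporter, which brings phosphate in for ATP synthesis, was higher by 1.48 in the root and changed by -1.82 in the shoot under –Zn. On Zn withdrawal without Fe it changed by -1.03 in the root (adjusted p = 0.02) and -1.80 in the shoot (adjusted p = 0.00018, limma). Without replicate 1 of root –Fe–Zn the root value was -0.49 (limma adjusted p = 0.087) and the tissue difference -1.31 (limma adjusted p = 0.0012).

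Carbonic anhydrase, a Zn enzyme that hydrates CO2 and feeds the first fixation step of C4 leaves, was a shoot transcript throughout. In the root it read 3.90, 4.15 and 3.78 on the control arrays, 6.58, 6.49 and 6.65 without Zn, 2.83, 2.34 and 3.1 without Fe and 4.55, 4.08 and 3.81 without either. The corresponding shoot values were 13.65, 13.56 and 13.55 (control), 10.84, 11.70 and 11.77 (–Zn), 13.52, 13.45 and 13.50 (–Fe) and 11.14, 8.61 and 9.63 (neither metal). The tissues never met: the lowest shoot array was above the highest root array. On Zn withdrawal without Fe it changed by 1.39 in the root (adjusted p = 0.01) and -3.70 in the shoot (adjusted p = 1.2e-06, limma), and the tissue difference was -5.09 (standard error 0.59, limma adjusted p = 1.9e-06). Without replicate 1 of root –Fe–Zn its root change was 1.18 (limma adjusted p = 0.052).

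RGP, a reversibly glycosylated polypeptide that the study's table lists as UDP-arabinopyranose mutase 3, acts on the sugar nucleotides of wall synthesis. Root values were 8.78, 8.97 and 8.86 in the control, 9.92, 10.03 and 9.98 in –Zn, 8.56, 8.71 and 8.40 in –Fe and 5.81, 9.60 and 9.54 where both were left out. Shoot arrays read 7.82, 7.72 and 7.40 in the control, 3.54, 3.75 and 3.74 without Zn, 8.99, 8.59 and 8.45 without Fe and 5.18, 2.93 and 3.90 without either. Root –Fe–Zn replicate 1 was far below its group, and shoots without Zn were low in both groups. The tissue difference was -4.44 (standard error 0.99, limma adjusted p = 0.0012), and its other probe set changed by 0.35 in the root and -0.21 in the shoot under –Zn.

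**Figure D4:**
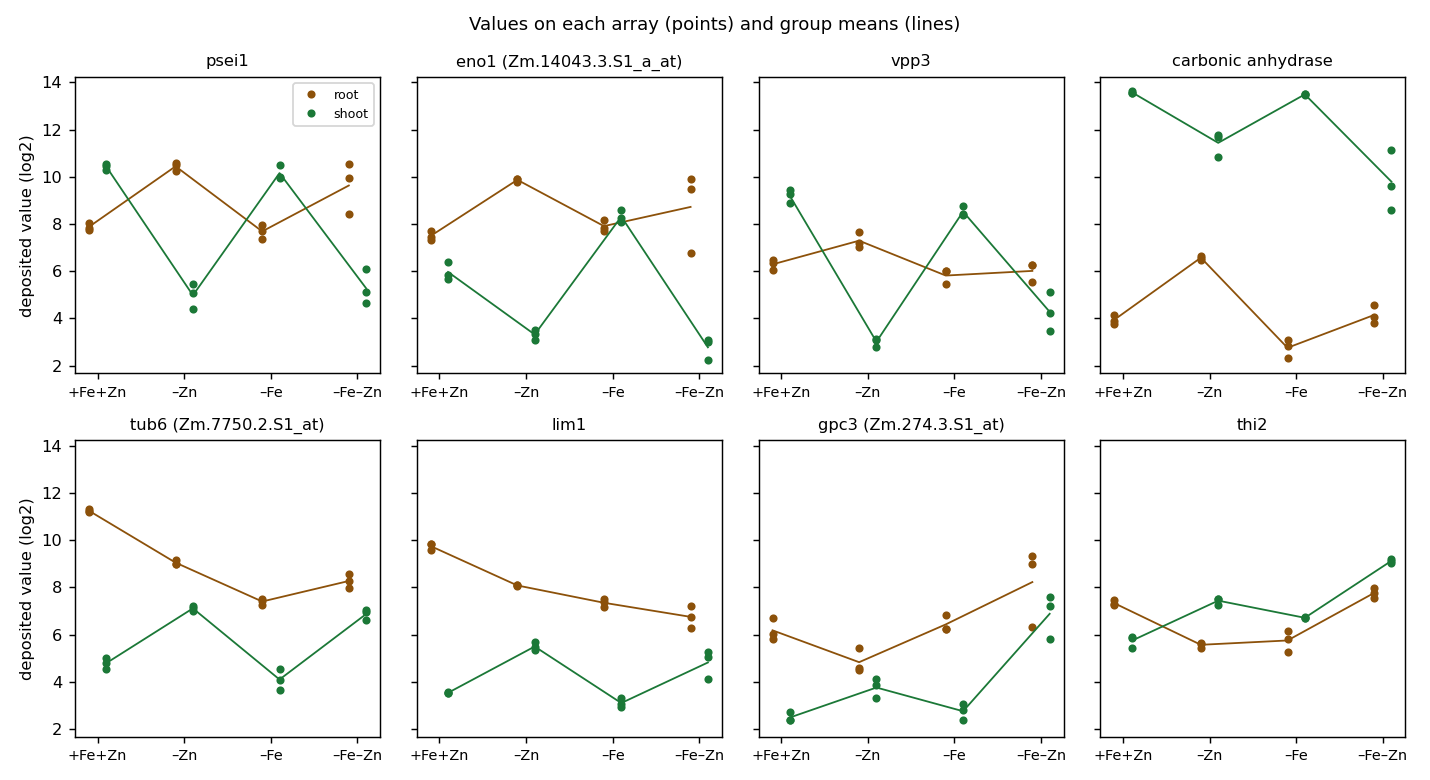
Deposited log2 values of 4 root-higher members (upper row) and 4 root-lower members (lower row) on each array, root in brown and shoot in green, lines through the means of 3 arrays. psei1 is near 10 in control shoots and near 5 in shoots without Zn, while tub6 is higher in –Zn shoots than in control shoots (7.11 against 4.79 on average) and lower in –Zn roots.

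Cystatins, inhibitors of cysteine proteases, gave 3 members from 2 genes that share a sequence cluster, so they are not independent. The probe set of psei1 had the largest tissue difference among the named members, -6.82 (standard error 0.59, limma adjusted p = 6.3e-08). The root arrays held 7.83, 8.06 and 7.75 (control), 10.49, 10.58 and 10.26 (–Zn), 7.71, 7.97 and 7.38 (–Fe) and 8.43, 10.53 and 9.93 (both left out). Shoot values were 10.55, 10.46 and 10.28 in the control, 4.42, 5.07 and 5.45 in –Zn, 10.51, 10.01 and 9.95 in –Fe and 6.08, 5.1 and 4.65 where both were left out. Roots and shoots changed places when Zn was absent. A second psei1 probe set, which was no member, changed by 0.22 in the root and -0.22 in the shoot under –Zn. Of 4 probe sets of cpi2, 2 were members, both with the suffix x. For the first the tissue difference was -3.46 (standard error 0.44, limma adjusted p = 4.4e-06). On root arrays the signal was 7.62, 8.05 and 7.62 in the control, 10.23, 10.15 and 10.01 when Zn was left out, 7.45, 7.56 and 7.09 when Fe was and 8.53, 9.94 and 9.66 when both were. The shoot arrays held 10.23, 10.08 and 10.09 (control), 5.75, 6.12 and 6.36 (–Zn), 8.39, 8.22 and 8.61 (–Fe) and 7.60, 6.40 and 6.87 (both left out). The shoot was also lower under –Fe (-1.73, limma adjusted p = 0.00021). For the second cpi2 member it was -3.38 (standard error 0.46, limma adjusted p = 1e-05). Control roots gave 8.05, 8.07 and 7.97, –Zn roots 9.71, 9.72 and 9.46, –Fe roots 7.80, 7.94 and 7.70 and roots lacking both metals 8.14, 10.07 and 9.67. On shoot arrays it was 9.70, 9.75 and 9.51 in the control, 5.45, 6.02 and 6.02 when Zn was left out, 8.93, 8.70 and 8.50 when Fe was and 7.16, 6.63 and 6.63 when both were. All 3 cystatin probe sets rose in the root on Zn withdrawal, by 1.94, 2.01 and 1.48, and so kept both sides of the pattern. The other probe sets of cpi2, near the floor in the controls, changed by -0.05 in the root and 0.39 in the shoot and by 0.00 in the root and 0.13 in the shoot under –Zn.

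Vacuolar proton pumps acidify the vacuole, and vpp3 had the largest shoot change of all members under –Zn, -6.18, beside a root change close to the limit, 1.00. For the root, the log2 values were 6.04, 6.36 and 6.47 with both metals, 7.02, 7.18 and 7.68 with Fe alone, 5.99, 6.02 and 5.44 with Zn alone and 6.25, 6.26 and 5.53 with neither. Control shoots gave 9.45, 9.26 and 8.87, –Zn shoots 3.08, 3.15 and 2.81, –Fe shoots 8.77, 8.41 and 8.39 and shoots lacking both metals 5.14, 3.46 and 4.24. Shoot –Zn arrays were within 1 unit of the floor. Its tissue difference was -4.44 (standard error 0.46, limma adjusted p = 4.7e-07) and the root changed by 0.20 (adjusted p = 0.75). NRAMP transporter1, of a family that carries divalent metals across membranes, was lower in every stressed shoot than in the control. In the root it read 6.24, 6.31 and 6.25 on the control arrays, 7.96, 7.97 and 7.83 without Zn, 6.87, 6.96 and 6.62 without Fe and 6.88, 6.91 and 6.91 without either. For the shoot, they were 9.06, 9.25 and 9.08 with both metals, 7.55, 7.04 and 7.33 with Fe alone, 7.91, 7.90 and 7.69 with Zn alone and 6.47, 6.43 and 5.33 with neither. It fell in shoot –Fe by 1.30 (limma adjusted p = 8e-05), and its tissue difference was -1.84 (standard error 0.30, limma adjusted p = 6.2e-05). Ferric-chelate reductase, which reduces Fe before transport in many plants, was upregulated in root –Fe as well, by 1.46 (limma adjusted p = 0.00014). Root values were 3.74, 3.39 and 4.04 in the control, 4.91, 4.84 and 5.1 in –Zn, 5.34, 5.27 and 4.95 in –Fe and 4.63, 5.40 and 5.02 where both were left out. Those of the shoot were 5.47, 5.06 and 5.13 in the control, 3.96, 3.40 and 4.40 without Zn, 5.0, 4.63 and 4.85 without Fe and 3.29, 3.67 and 3.23 without either. All stressed roots were above the control, Zn withdrawal in Fe-deficient roots changed it by -0.17 (limma adjusted p = 0.67) and the tissue difference was -1.26 (standard error 0.33, limma adjusted p = 0.0047). The ABC transporter C family member 14 was higher by 1.06 in the root and lower in the shoot under –Zn (-2.84). It fell in shoot –Fe as well (-3.37, limma adjusted p = 1.1e-07), and its tissue difference was -0.77 (standard error 0.44, limma adjusted p = 0.17).

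Adenosylhomocysteinase clears S-adenosylhomocysteine in the methyl cycle that also supplies mugineic acid synthesis. The root arrays held 11.80, 12.16 and 12.03 (control), 12.90, 13.11 and 13.21 (–Zn), 11.73, 11.70 and 11.33 (–Fe) and 10.13, 12.59 and 12.37 (both left out). The corresponding shoot values were 8.62, 9.11 and 8.69 (control), 6.82, 6.96 and 7.11 (–Zn), 9.64, 9.46 and 9.56 (–Fe) and 7.69, 6.07 and 6.15 (neither metal). Roots stayed above shoots in all treatments. Its tissue difference was -3.02 (standard error 0.68, limma adjusted p = 0.0013), and its root change on Zn withdrawal was 0.11 (limma adjusted p = 1.00). Without replicate 1 of root –Fe–Zn that change was 0.89 (limma adjusted p = 0.04).

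Translation factors contributed tif5A, which helps ribosomes through difficult sequences, and eIFiso-4E, which binds the cap of mRNA. On root arrays the tif5A signal was 4.20, 4.92 and 4.40 in the control, 7.27, 7.72 and 7.07 when Zn was left out, 5.21, 5.29 and 4.65 when Fe was and 3.87, 6.99 and 7.40 when both were. Shoot arrays read 5.35, 5.19 and 4.92 in the control, 2.92, 3.29 and 3.29 without Zn, 6.12, 5.56 and 5.6 without Fe and 3.58, 2.85 and 2.92 without either. Replicate 1 of root –Fe–Zn was about 3 units under the others, and the tissue difference was -3.68 (standard error 0.84, limma adjusted p = 0.0015). Its second probe set changed by 0.28 in the root and -1.67 in the shoot under –Zn and so shared the shoot side. For eIFiso-4E, control roots gave 6.21, 6.50 and 6.61, –Zn roots 7.41, 7.58 and 7.91, –Fe roots 7.08, 6.99 and 6.97 and roots lacking both metals 4.97, 6.50 and 6.75. Shoot values were 6.81, 6.74 and 6.79 in the control, 2.66, 2.69 and 3.25 in –Zn, 7.50, 7.28 and 7.40 in –Fe and 4.88, 2.53 and 2.95 where both were left out. The shoot –Zn arrays and 2 of the 3 shoot –Fe–Zn arrays were near the floor, and the tissue difference was -3.0 (standard error 0.66, limma adjusted p = 0.0011). The other eIFiso-4E probe set changed by -0.07 in the root and 0.09 in the shoot under –Zn.

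Signalling and traffic genes followed. CK2 protein kinase alpha 2 is a catalytic subunit of casein kinase 2, yptm2 a small GTPase of vesicle traffic, anx2 an annexin that binds membranes with calcium and nrx1 a nucleoredoxin of the thioredoxin family. For CK2 in the root, the log2 values were 5.76, 6.44 and 6.41 with both metals, 7.32, 7.38 and 7.68 with Fe alone, 6.92, 7.10 and 6.90 with Zn alone and 5.0, 5.91 and 6.80 with neither. The shoot arrays held 8.97, 8.59 and 8.39 (control), 3.48, 4.36 and 5.63 (–Zn), 8.04, 7.63 and 7.43 (–Fe) and 5.68, 2.57 and 4.63 (both left out). Both Zn-free shoot groups were widely spread, and the tissue difference was -2.34 (standard error 0.88, limma adjusted p = 0.04). In the root yptm2 read 7.41, 7.60 and 7.58 on the control arrays, 8.60, 8.81 and 9.08 without Zn, 8.06, 8.17 and 8.09 without Fe and 5.82, 7.62 and 7.32 without either. On shoot arrays it was 9.48, 9.42 and 9.19 in the control, 5.0, 5.74 and 5.96 when Zn was left out, 8.84, 8.59 and 8.61 when Fe was and 6.53, 5.25 and 5.63 when both were. On Zn withdrawal the root changed by -1.18 (limma adjusted p = 0.02), or by -0.63 without replicate 1 of root –Fe–Zn (limma adjusted p = 0.098), and the tissue difference was -1.69 (standard error 0.52, limma adjusted p = 0.01). Root values of anx2 were 7.67, 7.62 and 7.72 in the control, 9.16, 9.11 and 9.21 in –Zn, 7.42, 7.71 and 7.56 in –Fe and 7.19, 9.02 and 9.05 where both were left out. Control shoots gave 6.04, 5.88 and 5.97, –Zn shoots 4.82, 4.87 and 5.03, –Fe shoots 8.06, 7.71 and 7.73 and shoots lacking both metals 5.63, 5.11 and 4.82. Shoot –Fe arrays were above the shoot controls by 1.87 (limma adjusted p = 0.0002), and the tissue difference was -3.50 (standard error 0.47, limma adjusted p = 8.6e-06). The root arrays for nrx1 held 5.06, 4.90 and 5.13 (control), 6.98, 7.14 and 7.40 (–Zn), 6.34, 6.72 and 6.32 (–Fe) and 4.18, 5.57 and 5.15 (both left out). For the shoot, they were 6.67, 6.36 and 6.86 with both metals, 4.56, 4.49 and 4.56 with Fe alone, 6.96, 6.80 and 6.46 with Zn alone and 4.47, 3.85 and 3.86 with neither. It changed by -1.49 in the root (adjusted p = 0.00021) and -2.68 in the shoot (adjusted p = 2e-07, limma) on Zn withdrawal without Fe, so it fell in the root although –Zn roots were above their controls. The tissue difference was -1.19 (standard error 0.37, limma adjusted p = 0.01).

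The members that follow are named without a role. On root arrays the IPP signal was 3.97, 4.28 and 4.02 in the control, 6.15, 6.43 and 6.64 when Zn was left out, 4.43, 4.56 and 3.95 when Fe was and 3.87, 5.30 and 3.89 when both were. Those of the shoot were 4.85, 5.04 and 4.75 in the control, 2.84, 2.96 and 3.07 without Zn, 4.87, 4.36 and 4.61 without Fe and 3.21, 2.84 and 2.92 without either. Its tissue difference was -1.67 (standard error 0.40, limma adjusted p = 0.0022), and its 2 other probe sets changed by 0.78 in the root and 0.60 in the shoot and by 0.89 in the root and 0.06 in the shoot under –Zn. For rcalm, control roots gave 6.06, 6.13 and 5.99, –Zn roots 7.54, 7.64 and 7.80, –Fe roots 6.19, 6.13 and 5.94 and roots lacking both metals 5.14, 6.62 and 6.94. The corresponding shoot values were 6.39, 6.30 and 6.28 (control), 2.24, 2.76 and 2.87 (–Zn), 6.77, 6.33 and 6.46 (–Fe) and 4.40, 3.87 and 2.24 (neither metal). A single array of each Zn-free shoot group was at the floor, and the tissue difference was -3.16 (standard error 0.62, limma adjusted p = 0.00039). For LOC541999 in the root, the log2 values were 8.04, 8.42 and 8.20 with both metals, 10.03, 10.16 and 10.11 with Fe alone, 8.46, 8.49 and 8.18 with Zn alone and 7.21, 9.52 and 9.54 with neither. Shoot arrays read 5.08, 4.85 and 4.76 in the control, 2.66, 2.66 and 2.82 without Zn, 5.13, 4.76 and 4.77 without Fe and 2.66, 2.94 and 2.37 without either. The tissue difference was -2.61 (standard error 0.57, limma adjusted p = 0.00099), while its other probe set changed by 0.58 in the root and -0.18 in the shoot under –Zn. In the root LOC541984 read 4.88, 5.19 and 5.24 on the control arrays, 6.12, 6.25 and 6.32 without Zn, 5.16, 5.29 and 4.92 without Fe and 4.65, 7.15 and 6.85 without either. Shoot values were 6.39, 6.45 and 6.30 in the control, 3.79, 4.28 and 4.64 in –Zn, 6.20, 6.16 and 6.36 in –Fe and 4.13, 3.02 and 3.05 where both were left out. The tissue difference was -3.93 (standard error 0.63, limma adjusted p = 6.1e-05), and its 2 other probe sets changed by -0.17 in the root and 0.25 in the shoot and by -0.04 in the root and -0.15 in the shoot. Root values of LOC542170 were 5.90, 6.19 and 5.96 in the control, 7.03, 7.06 and 7.12 in –Zn, 6.16, 6.33 and 6.11 in –Fe and 5.70, 5.85 and 6.17 where both were left out. The shoot arrays held 7.16, 7.20 and 7.61 (control), 4.25, 5.15 and 5.05 (–Zn), 7.16, 6.70 and 7.05 (–Fe) and 4.99, 3.56 and 4.50 (both left out). The change differed between the tissues by -2.33 (standard error 0.40, limma adjusted p = 0.0001). PK was higher by 1.40 in the root and changed by -2.38 in the shoot under –Zn, with a tissue difference of -0.83 (standard error 0.36, limma adjusted p = 0.07). The high mobility group gene hmg2, for a chromatin protein, changed by 1.20 and -2.07, with a tissue difference of -0.53 (standard error 0.43, limma adjusted p = 0.34), or of -1.04 without replicate 1 of root –Fe–Zn (limma adjusted p = 0.0047).

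Of the 12 root-higher genes with further probe sets, 16 in all, 6 of those further probe sets had both signs of the pattern under –Zn, and their median changes were 0.23 in the root and 0.00 in the shoot. The root-higher members without a name whose smaller change was largest were Zm.7081.2.S1_a_at and Zm.2321.4.A1_a_at. For the first, the root arrays held 8.57, 8.75 and 8.40 (control), 10.53, 10.70 and 10.86 (–Zn), 9.52, 9.62 and 9.22 (–Fe) and 6.55, 11.20 and 10.88 (both left out). On shoot arrays it was 5.02, 4.94 and 4.6 in the control, 2.42, 2.40 and 2.38 when Zn was left out, 6.61, 6.38 and 6.13 when Fe was and 2.42, 2.38 and 2.42 when both were. Its shoot was near the floor wherever Zn was absent, and its tissue difference was -4.06 (standard error 1.05, limma adjusted p = 0.0039). On root arrays the second signal was 3.86, 4.61 and 4.76 in the control, 6.24, 6.48 and 6.61 when Zn was left out, 4.70, 4.38 and 4.08 when Fe was and 3.93, 6.01 and 5.15 when both were. Control shoots gave 7.47, 7.44 and 7.47, –Zn shoots 3.56, 3.56 and 3.56, –Fe shoots 9.21, 8.90 and 8.83 and shoots lacking both metals 3.59, 3.52 and 3.73. Its shoot –Fe arrays were above the control, and the tissue difference was -6.01 (standard error 0.49, limma adjusted p = 2.8e-08).

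The root-lower set was small, and its named members included cytoskeleton and wall genes, among them tubulins, which build microtubules. Of 21 probe sets for tubulins, 3 were root-lower members and none was in the other set. The gene tub6 has 4 probe sets, of which 2 were members. For the member with the plain suffix the tissue difference was 1.91 (standard error 0.27, limma adjusted p = 1.3e-05). Control roots gave 11.20, 11.23 and 11.30, –Zn roots 8.99, 9.17 and 8.98, –Fe roots 7.52, 7.25 and 7.43 and roots lacking both metals 7.96, 8.56 and 8.29. For the shoot, they were 4.55, 5.02 and 4.80 with both metals, 7.21, 7.14 and 6.98 with Fe alone, 3.65, 4.55 and 4.09 with Zn alone and 6.61, 7.05 and 6.95 with neither. Stressed roots were all below the control, lowest under –Fe, whereas the shoot was high in both groups without Zn. For the member with suffix x it was 1.51 (standard error 0.41, limma adjusted p = 0.0058). For the root, the log2 values were 9.63, 9.59 and 9.54 with both metals, 8.38, 8.41 and 8.12 with Fe alone, 6.75, 6.56 and 6.82 with Zn alone and 6.24, 7.84 and 6.90 with neither. Those of the shoot were 4.08, 4.25 and 4.25 in the control, 6.10, 5.09 and 5.86 without Zn, 3.51, 3.90 and 3.70 without Fe and 5.25, 5.63 and 5.61 without either. Its 2 other probe sets changed by -0.14 in the root and 1.40 in the shoot and by -0.66 in the root and 0.07 in the shoot under –Zn. Tubulin genes are similar in sequence, so signal can be shared between them. The beta-tubulin tub3 changed by -1.42 in the root and 1.61 in the shoot under –Zn, and its tissue difference was 0.21 (standard error 0.23, limma adjusted p = 0.51).

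Wall genes were represented by bk2, brittle stalk 2, a COBRA-like protein needed for cellulose-rich walls, and by UGlcAE, a UDP-glucuronic acid 4-epimerase that makes a pectin precursor. In the root bk2 read 4.85, 5.17 and 5.27 on the control arrays, 3.95, 3.59 and 3.68 without Zn, 3.57, 3.70 and 3.75 without Fe and 4.53, 6.99 and 6.36 without either. The corresponding shoot values were 2.42, 2.44 and 2.42 (control), 3.56, 3.60 and 3.56 (–Zn), 2.24, 2.42 and 2.33 (–Fe) and 2.24, 2.42 and 2.43 (neither metal). Shoots were at or near the floor except under –Zn. On Zn withdrawal without Fe, bk2 rose in the root by 2.29 (limma adjusted p = 9.6e-05), against its –Zn direction, and its tissue difference was -2.25 (standard error 0.53, limma adjusted p = 0.0018). Root values of UGlcAE were 8.56, 8.68 and 8.67 in the control, 7.41, 7.24 and 7.25 in –Zn, 7.76, 7.82 and 7.88 in –Fe and 6.97, 6.77 and 6.05 where both were left out. Shoot arrays read 5.33, 5.33 and 5.57 in the control, 6.97, 6.97 and 6.15 without Zn, 6.90, 6.76 and 6.81 without Fe and 6.63, 6.93 and 6.73 without either. Stressed shoots were all above the control and stressed roots all below it, and the tissue difference was 1.16 (standard error 0.29, limma adjusted p = 0.0029). Its other probe set changed by -0.22 in the root and -0.13 in the shoot under –Zn.

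For lim1, of a family of LIM-domain proteins, the root fell under –Fe too (-2.40, limma adjusted p = 5.4e-07). The root arrays held 9.84, 9.57 and 9.83 (control), 8.06, 8.08 and 8.10 (–Zn), 7.16, 7.50 and 7.38 (–Fe) and 7.22, 6.76 and 6.27 (both left out). Shoot values were 3.56, 3.51 and 3.53 in the control, 5.67, 5.34 and 5.47 in –Zn, 2.92, 3.08 and 3.30 in –Fe and 4.13, 5.07 and 5.25 where both were left out. Shoots were higher without Zn than with it, with or without Fe, and the tissue difference was 2.31 (standard error 0.33, limma adjusted p = 2e-05). The root-lower gpc3 stands against gpc2 of the other set. On root arrays the signal was 6.69, 6.02 and 5.83 in the control, 5.41, 4.50 and 4.58 when Zn was left out, 6.22, 6.24 and 6.83 when Fe was and 6.34, 9.34 and 8.99 when both were. The shoot arrays held 2.38, 2.70 and 2.38 (control), 4.12, 3.85 and 3.30 (–Zn), 2.38, 3.06 and 2.82 (–Fe) and 5.83, 7.23 and 7.58 (both left out). The shoot rose by 4.13 on Zn withdrawal without Fe, and the root by 1.79, and the tissue difference was 2.33 (standard error 0.84, limma adjusted p = 0.03). Without replicate 1 of root –Fe–Zn that difference was 1.39 (limma adjusted p = 0.058) and the root change 2.73. Its 2 other probe sets changed by -1.22 in the root and 0.95 in the shoot and by 0.79 in the root and 0.29 in the shoot under –Zn. These dehydrogenase genes are close in sequence, so the split of signal between them is uncertain.

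A pair of members from primary metabolism moved apart from that pattern without Fe. The thiamine synthesis gene thi2 changed by -1.76 in the root and 1.70 in the shoot under –Zn, but rose by 2.01 in the root (adjusted p = 7.1e-08) and 2.41 in the shoot (adjusted p = 3.8e-09, limma) when Zn was withdrawn without Fe, and its tissue difference was 0.40 (standard error 0.24, limma adjusted p = 0.20). The glutamine synthetase gln3, which fixes ammonium, changed by -1.85 and 1.05 under –Zn and rose in the root by 1.46 (limma adjusted p = 0.00049) on Zn withdrawal, with a tissue difference of -0.83 (standard error 0.40, limma adjusted p = 0.10).

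For LOC541918 the shoot was above 12 in both groups without Fe. Control roots gave 6.93, 7.33 and 7.71, –Zn roots 2.87, 4.19 and 3.23, –Fe roots 5.68, 5.12 and 5.63 and roots lacking both metals 4.62, 4.71 and 3.97. On shoot arrays it was 6.01, 6.27 and 6.04 in the control, 7.62, 6.76 and 7.32 when Zn was left out, 12.26, 12.20 and 12.52 when Fe was and 12.99, 13.39 and 13.36 when both were. Its shoot rose by 6.22 under –Fe (limma adjusted p = 4e-11), the tissue difference on Zn withdrawal was 1.96 (standard error 0.43, limma adjusted p = 0.0011), and its other probe set changed by -4.18 in the root and 0.90 in the shoot under –Zn. Of the 4 root-lower genes with further probe sets, 6 in all, 4 of those probe sets had both signs of the pattern. The leading root-lower members without a name were Zm.2171.1.A1_at and Zm.1360.1.S1_at. For the first in the root, the log2 values were 8.30, 8.24 and 8.48 with both metals, 4.97, 4.6 and 4.83 with Fe alone, 4.91, 4.84 and 4.79 with Zn alone and 6.36, 6.27 and 5.99 with neither. Control shoots gave 8.10, 8.15 and 7.94, –Zn shoots 10.44, 10.58 and 10.71, –Fe shoots 10.23, 10.26 and 10.17 and shoots lacking both metals 8.95, 9.17 and 9.17. Its shoot was high in all stresses, and the tissue difference, -2.48 (standard error 0.15, limma adjusted p = 7.1e-10), was opposite to the –Zn pattern. In the root the second read 7.23, 7.17 and 7.61 on the control arrays, 5.05, 5.17 and 5.19 without Zn, 4.62, 4.68 and 4.72 without Fe and 6.62, 4.37 and 5.45 without either. For the shoot, they were 4.02, 4.16 and 4.07 with both metals, 6.87, 6.17 and 6.09 with Fe alone, 3.20, 3.76 and 3.83 with Zn alone and 6.95, 7.52 and 7.10 with neither. Its shoot was high only where Zn was absent, and the tissue difference was 2.79 (standard error 0.52, limma adjusted p = 0.00027).

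Comparisons of –Fe with +Fe+Zn use the control arrays that also chose the members, so their counts are a description. In root –Fe, 39 of the 58 root-lower members fell (10.9% of all probe sets) and 4 rose, with a median of -1.28. Of the root-higher set, 26 rose (14.7% of all) and 4 fell, with a median of 0.32. Without replicate 2 and without replicate 3, 13 and 11 rose, and the shares of all in those fits are not given. In shoot –Fe, 27 root-lower members rose (17% of all) and 6 fell, whereas the root-higher set was divided into 43 that rose and 34 that fell (16.4% of all). With the covariate the latter counts were 5 and 67, with no share of all probe sets given. The middle minus 3′ signal of shoot –Fe was far from its control, as given above.

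Under –Fe–Zn, again against the shared controls, 159 root-higher members fell in the shoot (22.2% of all, with 44.6% called in either direction) and none rose by limma at this threshold, with all 172 estimates below 0. In the root 19 rose (8.09% of all) and 11 fell, and 65 rose without replicate 1, a count whose share of all probe sets is not given. Of the root-lower set, 42 fell in the root (20% of all) and 49 rose in the shoot (22.4% of all). Under –Fe itself, where Zn was present, 58 root-higher members were lower in the shoot than in the root (27.7% of all) and 55 higher (25.1%, or 52.8% either way), and 31 and 16 of the root-lower set were. The root-higher set was thus divided between the tissues there.

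**Figure D5:**
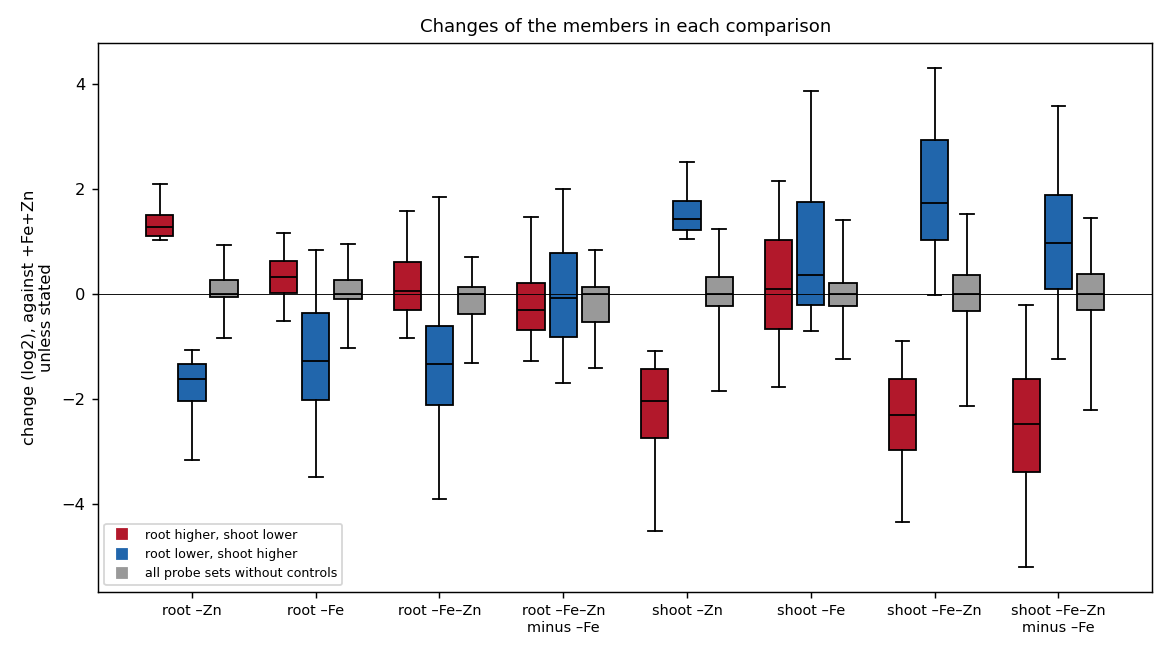
Changes (log2) of the 172 root-higher members, the 58 root-lower members and all probe sets without controls, as boxes between the quartiles with the median and whiskers from the 5th to the 95th percentile. The –Zn boxes were fixed by the rule, and those of –Fe and –Fe–Zn use the same control arrays. Under –Fe–Zn the root-higher set had medians of -2.31 in the shoot and 0.06 in the root, where replicate 1 of root –Fe–Zn was low.

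Of 14 gene lists drawn up from symbols and the study's table, few met these sets, and they are given in probe sets. The 7 vacuolar proton pumps held vpp3 alone, 20 of nicotianamine, mugineic acids and metals held NRAMP transporter1 and ferric-chelate reductase, and 51 of redox defence held nrx1. The 39 of cellulose synthesis and wall proteins held bk2, the 9 of nitrogen assimilation gln3 and the 29 transcription factors lim1. The 33 aquaporins, 27 of photosystems, Rubisco and C4 enzymes, 28 cytosolic ribosomal proteins, 14 of histones and replication, 12 heat shock proteins, 24 of sucrose and starch and 24 of hormones held none. The vacuolar proton pumps as a list had median –Zn changes of 0.56 in the root and -3.14 in the shoot, and on Zn withdrawal without Fe 6 of 7 fell in the shoot (22.1% of all) and 3 of 7 rose in the root (10.9% of all). The ATPase subunits of this list entered only through the study's table, drawn up with these samples in view. Its counts are therefore a description. Aquaporins had medians of -0.08 and 0.00 under –Zn.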

How the data were processed

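Values of 24 Affymetrix GeneChip Maize Genome Arrays were used. The authors deposited them on the log2 scale, made by GCRMA per the study's methods, whereas the submitters' notes name affy, RMA and limma, so the background correction was not settled. Arrays were grouped from the labels. Members and gene lists were chosen with earlier results of these data known. In R 4.3.3 with limma 3.58.1, 1 model with 8 group means was fitted to all 17734 probe sets (lmFit, eBayes, Benjamini-Hochberg adjustment over all of them), after a test on simulated data, and 8 comparisons were read from it. The estimates of –Fe–Zn against –Fe use no array that chose members, but their standard errors and p-values rest on a spread estimated from all 24. An exact permutation test of 3 against 3 cannot give a p under 0.10. Depth does not apply, and 3 arrays per group limit the precision. The annotation pairs 1452 probe sets with 1 gene, 1 with several and 16281 with none, and the study's gene table names 92. Text names every named member and, per direction, the 2 unnamed ones whose smaller change was largest, with array values where the tissue difference passed. Symbols come from the annotation's gene identifiers, 1377 of which are in RefSeq (Zm-B73-REFERENCE-NAM-5.0). Alternatives were thresholds of 0.8 and 1.5, group medians, leaving out replicates, a replicate block, quantile and median scaling, a filter on dim probe sets, an intensity trend, only the groups compared, the methods' threshold and, added after seeing the data, a middle minus 3′ covariate, leaving out single root –Fe–Zn arrays and plain-suffix probe sets alone.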

Additional observations from a re-analysis of the deposited data

Results flagged for a closer look

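The change on Zn withdrawal from Fe-deficient plants differed between shoot and root, by the interaction of tissue and Zn in limma, for 128 root-higher members with the shoot change lower and for 32 root-lower members with the shoot change higher. Among the named root-higher members the shoot minus root differences (log2) that brought them here were psei1 (-6.82), eno1 (-6.35), Carbonic anhydrase (-5.09), mdh5 (-4.63), Ubiquinol-cytochrome c reductase complex (-4.6), vpp3 (-4.44), RGP (-4.44), gpc2 (-4.29), LOC541984 (-3.93), tif5A (-3.68), anx2 (-3.50), cpi2 (-3.46) and cpi2 (-3.38). The remaining ones were rcalm (-3.16), Adenosylhomocysteinase (-3.02), eIFiso-4E (-3.0), Transaldolase 2 (-2.61), LOC541999 (-2.61), CK2 protein kinase alpha 2 (-2.34), LOC542170 (-2.33), NRAMP transporter1 (-1.84), Citrate synthase 2 (-1.83), yptm2 (-1.69), IPP (-1.67), Ferric-chelate reductase (-1.26) and nrx1 (-1.19). Of the named root-lower members, gpc3 (2.33), lim1 (2.31), LOC541918 (1.96), tub6 (1.91), tub6 (1.51) and UGlcAE (1.16) had positive differences, and bk2 (-2.25) had a negative one.

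The BioB control, a bacterial transcript added to each sample and used in no comparison of the report, was 7.06 higher in root –Fe–Zn than in root +Fe+Zn.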

How the results depend on the processing

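Membership depended on the limit: 0.8 gave 349 root-higher and 136 root-lower members and 1.5 gave 34 and 16, while plain-suffix probe sets alone left 79 root-higher ones. The middle minus 3′ covariate left 85 root-higher members falling in the shoot on Zn withdrawal and 44 with a negative tissue difference, and made 67 fall in shoot –Fe in place of 34. It turned the sign of the tissue difference of hmg2 (1.24), LOC541999 (0.081), tif5A (0.31), nrx1 (0.15), yptm2 (0.037), bk2 (0.16) and the unnamed Zm.7081.2.S1_a_at (1.05). Fitting only the groups compared gave 9 root-higher members rising on root Zn withdrawal, 56 rising under root –Fe and 9 when roots lacked both metals, and 8 and 24 root-lower ones falling on root Zn withdrawal and in root –Fe–Zn. Quantile normalization gave 12 root-lower members falling on root Zn withdrawal and 32 root-higher ones rising in root –Fe–Zn, and median centring 42 of the latter. At the methods' threshold 12 root-lower members fell on root Zn withdrawal and 17 root-higher ones rose in root –Fe. The causes were not tested. The shares of all probe sets under these alternatives, and with replicates left out below, are not given here.

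With replicates left out, root-higher members rising on root Zn withdrawal numbered 8 to 55, those with a negative tissue difference 64 to 141, those rising in root –Fe 11 to 32 and those rising in root –Fe–Zn 9 to 65. Root-lower members falling on root Zn withdrawal numbered 12 to 21. The highest counts in root –Fe–Zn came without its replicate 1. Of 214 counts compared across the alternatives, 183 stayed within 1.5 times, and of 585 tissue differences of named members 506 kept their direction and side of the threshold, 54 lost the call, 18 gained it and 7 turned sign. With the replicate number as a block, 126 root-higher members had a negative tissue difference in place of 128, and 157 fell in the shoot. Replicate numbers did not pair the arrays, since same-numbered deviations correlated at -0.13 to 0.28 over 21 same-numbered pairs of arrays from 7 pairs of groups, none of them –Zn. Near the floor of 2.24, changes are bounded and so understated.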
